A study of Rattus norvegicus with 8 samples.

Results

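The matrix metalloprotease genes Mmp2, Mmp3, Mmp7, Mmp8, Mmp9, Mmp10, Mmp12, Mmp13 and Mmp14 and the inhibitor gene Timp1 were followed in rat colon. They were chosen by name: every probe on the array whose gene name was one of these 10 symbols was taken, which gave 11 of 30354 probes and 10 of 26181 genes. RNA came from the colon of female Wistar rats aged 14 weeks, kept for 8 weeks on a diet that differed in its oil. The ALA colitis group (10 rats) was fed alpha-linolenic acid (ALA), an n-3 fatty acid found in plant oils. The fish oil colitis group (10 rats) was fed fish oil, a source of eicosapentaenoic and docosahexaenoic acid, and the n-6 colitis group (10 rats) sunflower oil, a source of n-6 fatty acids. Rats of these 3 groups were given colitis with 5% dextran sulfate sodium (DSS), which damages the epithelium of the colon, over 7 days. Healthy rats (6) also ate sunflower oil and received no DSS. The RNA of 6 rats was pooled, and each group has 2 arrays. For healthy colon both arrays thus stand for the same 6 animals. For the colitis groups it is not in the labels if each array had a pool of its own. Even then, 2 pools of 6 from 10 rats would share animals. The p-values thus measure the spread between arrays, which may be technical.

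Matrix metalloproteases are zinc enzymes, made as inactive precursors, that cut collagen, elastin, proteoglycans and other proteins of the extracellular matrix, and that also trim cytokines and cell-surface proteins. Tissue inhibitors of metalloproteases, of which Timp1 is one, bind the active enzymes and block them. In inflamed gut, fibroblasts, macrophages, neutrophils and the epithelium beside ulcers are known sources of these proteins, and inflammatory cytokines acting through the transcription factors AP-1 and NF-kB are known inducers of several of the genes.

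Array quality bears on every value that follows. The 75th percentile of the signal lay between 239 and 440 on 7 arrays and at 115 on fish oil replicate 1, which also had the fewest probes well above background (54.0%, against 59.8% to 70.1% on the other arrays). On 7 of 8 arrays the profile over the 18165 genes that passed the filter was more closely correlated with some array outside its group than with its own replicate. All 8 arrays lay on 1 slide, and in every comparison between 2 groups either slide row or slide column cannot be told apart from group. Levels are given as the log2 signal relative to the 75th percentile of the same array, so a level below 0 is dimmer than that percentile. A probe with signal not well above background has no firm level there. Some folds are therefore also given against a floor, the lowest level of any probe well above background on the array. That floor is not a detection limit. On the fish oil arrays Mmp7 read -4.02 and -5.02 without being well above background, while the mean floor was -5.34. The difference can thus be smaller than such a fold. With another background correction it can also be smaller. The colon is taken from the labels. All 13 colon epithelium markers on the array passed the filter, but so did 18165 of 26181 genes, so this is a weak check.

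In n-6 colitis against healthy, Timp1 had the largest difference of the 10 genes and the smallest p. The adjusted test covered the 18165 genes that passed the filter, among them 9 of the 10 genes, all but Mmp8. In n-6 colitis against healthy 0 of these 9, Timp1 included, passed an adjusted p of 0.05 in limma, where 0.0385% of all genes did. Without a filter on dim probes, so that all 10 entered, 4 were higher at an unadjusted p under 0.05 (Timp1, Mmp2, Mmp14 and Mmp7), where 3.9% of 26181 genes were, and none was lower. The signal was higher on both n-6 arrays than on both healthy arrays for 7 of 10 genes, against 20.4% of all genes. For Mmp3, Mmp8 and Mmp9 this order rests on signals not well above background on n-6 replicate 2 and both healthy arrays. The median log2 difference of the 10 genes was 1.84, beside 0.11 over all genes. Only 9 of the 10 passed the filter. Mmp3, Mmp9 and Mmp12 passed it through the ALA arrays alone, Mmp7 through the ALA and n-6 arrays, and Mmp8 failed it.

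**Figure D1:**
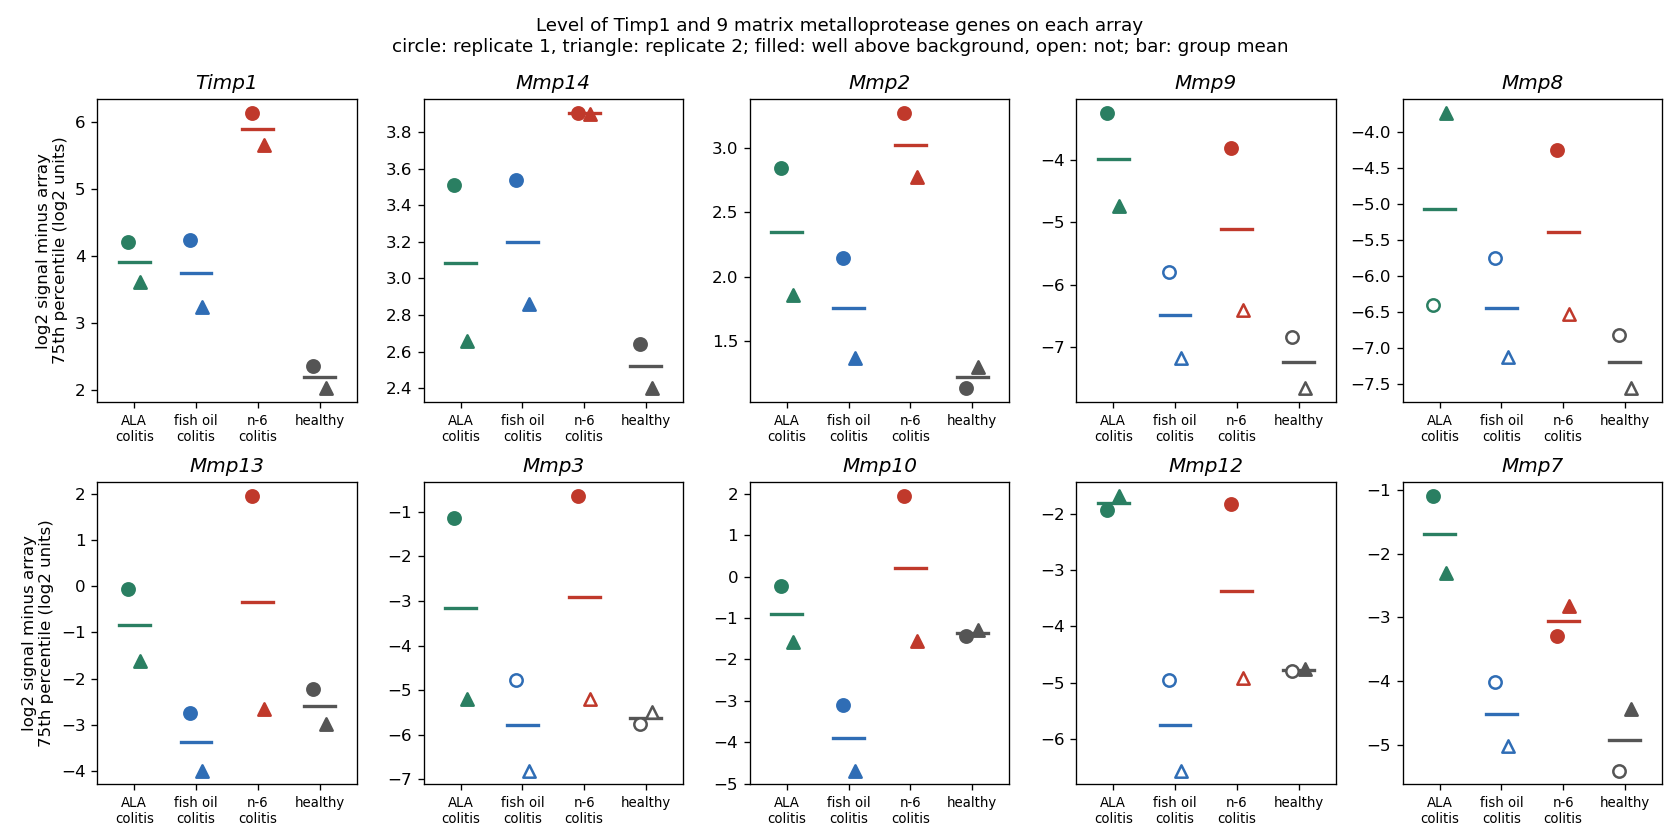
Level of each gene on each array, as log2 signal minus the array's 75th percentile, in ALA colitis, fish oil colitis, n-6 colitis and healthy colon (2 arrays each). Vertical scales differ between panels. The 2 n-6 arrays lie close together for Timp1, Mmp14, Mmp2 and Mmp7 and far apart for Mmp13, Mmp3, Mmp10, Mmp12 and Mmp9.

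Timp1, the secreted inhibitor of most soluble matrix metalloproteases, was well above background on all 8 arrays. Its level was 4.21 and 3.61 on the ALA arrays, 4.24 and 3.25 on the fish oil arrays and 6.14 and 5.65 on the n-6 arrays, against 2.36 and 2.03 on the healthy arrays. Every colitis array was above every healthy array, and both n-6 arrays were above every other array. In n-6 colitis the level was 13.0-fold that of healthy colon, a log2 difference of 3.70 (SE 0.436, limma adjusted p = 0.0707), which misses the threshold. It passed in 5 of 10 alternative ways of processing, with adjusted p between 0.00665 and 0.224 over the 10. ALA colitis stood 1.72 above healthy on the log2 scale (adjusted p = 0.687) and fish oil colitis 1.55 above it (adjusted p = 0.995). The mean of the 3 colitis groups stood 2.32 above healthy (adjusted p = 0.251).

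Mmp14, a membrane-anchored protease that activates pro-Mmp2 at the cell surface, was also measured on every array. Its level was 3.51 and 2.66 in ALA colitis, 3.54 and 2.86 in fish oil colitis and 3.90 and 3.90 in n-6 colitis, against 2.64 and 2.40 in healthy colon. The n-6 arrays differed from each other by 0.0046, the smallest gap between replicates among these genes, and lay above the 6 other arrays. Relative to healthy, n-6 colitis was 2.60-fold higher (log2 difference 1.38, SE 0.399, adjusted p = 0.216).

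Mmp2, gelatinase A, which cuts denatured and basement membrane collagen, was highest in n-6 colitis and lowest in healthy colon. Its brighter probe read 2.85 and 1.85 in ALA colitis, 2.14 and 1.37 in fish oil colitis and 3.27 and 2.78 in n-6 colitis, against 1.13 and 1.30 in healthy colon. Every colitis array exceeded both healthy arrays, and n-6 and ALA overlapped. The log2 difference between n-6 colitis and healthy was 1.81 (SE 0.451, adjusted p = 0.188).

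Mmp2 alone was read by 2 probes, and they did not give the same size of difference. Their sequences are shown because the choice of probe sets the value reported for this gene. Both come from the array files, are written in lower case and run from 5′ to 3′. The brighter lies at chr19:15246221-15246280 and the dimmer at chr19:15246805-15246864 on the minus strand of rn4, the build of the array files.
Mmp2 brighter probe: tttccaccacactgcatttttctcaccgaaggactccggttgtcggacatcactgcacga
Mmp2 dimmer probe: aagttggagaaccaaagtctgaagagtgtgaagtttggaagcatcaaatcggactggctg
The dimmer probe read -1.71 and -1.80 in ALA colitis, -1.25 and -2.77 in fish oil colitis and -1.31 and -2.00 in n-6 colitis, against -2.99 and -2.12 in healthy colon. On this probe too both n-6 arrays were above both healthy arrays, with a log2 difference of 0.90 (SE 0.571, limma adjusted p = 0.521). Against n-6 colitis, fish oil colitis was lower by 0.35 on the dimmer probe (log2 difference -0.35) and by more on the brighter (-1.27). In the authors' deposited value table Mmp2 stood at 0.98 and 0.33 in n-6 colitis, against -0.93 and -0.36 in healthy colon, levels that lie between those of the probes.

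Mmp9, gelatinase B, which neutrophils carry in granules, was dim. Its level was -3.25 and -4.74 in ALA colitis, -5.79 and -7.17 in fish oil colitis and -3.81 and -6.40 in n-6 colitis, against -6.83 and -7.66 in healthy colon. Only both ALA arrays and n-6 replicate 1 were well above background. The measured log2 difference between ALA colitis and healthy was 3.25 (limma without the filter, adjusted p = 0.905). The mean ALA level of -3.99 was 4.65-fold above -6.21, the floor of the healthy arrays, whose measured mean was -7.25. That floor is no detection limit: on healthy replicate 1 Mmp12 was not well above background at -4.79. In n-6 colitis only 1 of 2 arrays was well above background, and the log2 difference from healthy of 2.14 (adjusted p = 0.368) was 0.84 without it.

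The collagenases, which open the triple helix of fibrillar collagen, were Mmp8 and Mmp13. Mmp8, the collagenase of neutrophil granules, read -6.41 and -3.74 in ALA colitis, -5.75 and -7.14 in fish oil colitis and -4.25 and -6.53 in n-6 colitis, against -6.83 and -7.56 in healthy colon. It was well above background only on ALA replicate 2 and n-6 replicate 1, and on no healthy array. Mmp13, the chief interstitial collagenase of rodents, was well above background on all arrays. It read -0.05 and -1.63 in ALA colitis, -2.74 and -3.99 in fish oil colitis and 1.96 and -2.65 in n-6 colitis, against -2.22 and -2.98 in healthy colon. One n-6 array was the highest of the 8 and the other lay between the 2 healthy arrays, so the difference of 2.25 between n-6 colitis and healthy (log2, SE 1.38, adjusted p = 0.512) rests on replicate 1. Without that array it was -0.05, and without replicate 2 it was 4.56 (adjusted p = 0.0711).

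The stromelysins Mmp3 and Mmp10, which cut proteoglycans, fibronectin and laminin and activate other precursors, showed the same split. Mmp3 read -1.13 and -5.19 in ALA colitis, -4.76 and -6.80 in fish oil colitis and -0.63 and -5.19 in n-6 colitis, against -5.76 and -5.49 in healthy colon. Neither healthy nor fish oil arrays were well above background. Replicate 1 was the higher array in both ALA and n-6 colitis. ALA colitis was 5.30-fold above the floor of the healthy arrays. The measured log2 difference from healthy of 2.46 (limma without the filter, adjusted p = 0.905) was 0.43 without ALA replicate 1. In n-6 colitis only 1 of 2 arrays was well above background, and the log2 difference from healthy of 2.71 (adjusted p = 0.533) was 0.44 without it.

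Mmp10 was well above background on every array and was lowest in fish oil colitis. It read -0.22 and -1.57 in ALA colitis, -3.10 and -4.69 in fish oil colitis and 1.96 and -1.56 in n-6 colitis, against -1.42 and -1.28 in healthy colon. Both fish oil arrays lay below the 6 other arrays. The log2 difference between fish oil colitis and healthy was -2.54 (SE 1.13, unadjusted p = 0.0585, limma adjusted p = 0.995), and -0.78 with normexp background correction. Between n-6 colitis and healthy it was 1.55 (adjusted p = 0.584), and -0.21 without n-6 replicate 1.

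Mmp12, the elastase of macrophages, was even in ALA colitis and split in n-6 colitis. It read -1.93 and -1.68 in ALA colitis, -4.95 and -6.56 in fish oil colitis and -1.84 and -4.92 in n-6 colitis, against -4.79 and -4.75 in healthy colon. Of the healthy arrays 1 of 2 was well above background. On the measured signals the ALA arrays stood 2.96 above healthy on the log2 scale (limma without the filter, SE 0.991, adjusted p = 0.905). Without n-6 replicate 1 the difference between n-6 colitis and healthy was -0.15 in place of 1.39.

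Mmp7, matrilysin, a small protease that epithelial cells make, was highest in ALA colitis. It read -1.09 and -2.31 in ALA colitis, -4.02 and -5.02 in fish oil colitis and -3.30 and -2.82 in n-6 colitis, against -5.40 and -4.44 in healthy colon. Both ALA arrays were above the 6 others, and both n-6 arrays were above those of fish oil and healthy. Of the fish oil arrays 0 and of the healthy arrays 1 of 2 were well above background. On the measured signals, in limma without the filter, ALA colitis stood 3.22 above healthy on the log2 scale (SE 0.605, unadjusted p = 0.00113, adjusted p = 0.905). In the same fit n-6 colitis stood 1.86 above healthy (adjusted p = 0.466).

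The plot of differences and intervals sets these genes side by side. In ALA colitis against healthy, 0 of 9 genes passed the adjusted threshold (0% of all genes did), 4 of 10 were higher at an unadjusted p under 0.05 (3.85% of all genes) and 9 of 10 were higher on both ALA arrays than on both healthy arrays (20.9% of all genes). For Mmp8 this order rests on signals not well above background on ALA replicate 1 and both healthy arrays. In fish oil colitis against healthy the adjusted count was 0 of 9 (0% of all genes), and only Timp1 was higher at an unadjusted p under 0.05 (1.88% of all genes). For the mean of the 3 colitis groups against healthy it was 0 of 9 (0% of all genes), and Timp1, Mmp2, Mmp14, Mmp7 and Mmp9 were higher at an unadjusted p under 0.05 (2.9% of all genes). The comparisons share the healthy arrays. With normexp, which adds an offset of 50 to the signal and so narrows the differences of dim genes, ALA colitis stood above healthy by 1.30 for Mmp7, 1.26 for Mmp12, 0.96 for Mmp3 and 0.65 for Mmp9. For n-6 colitis against healthy the values were 1.33 for Mmp3, 0.77 for Mmp12, 0.60 for Mmp7 and 0.49 for Mmp9, while Timp1 stood at 3.59.

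**Figure D2:**
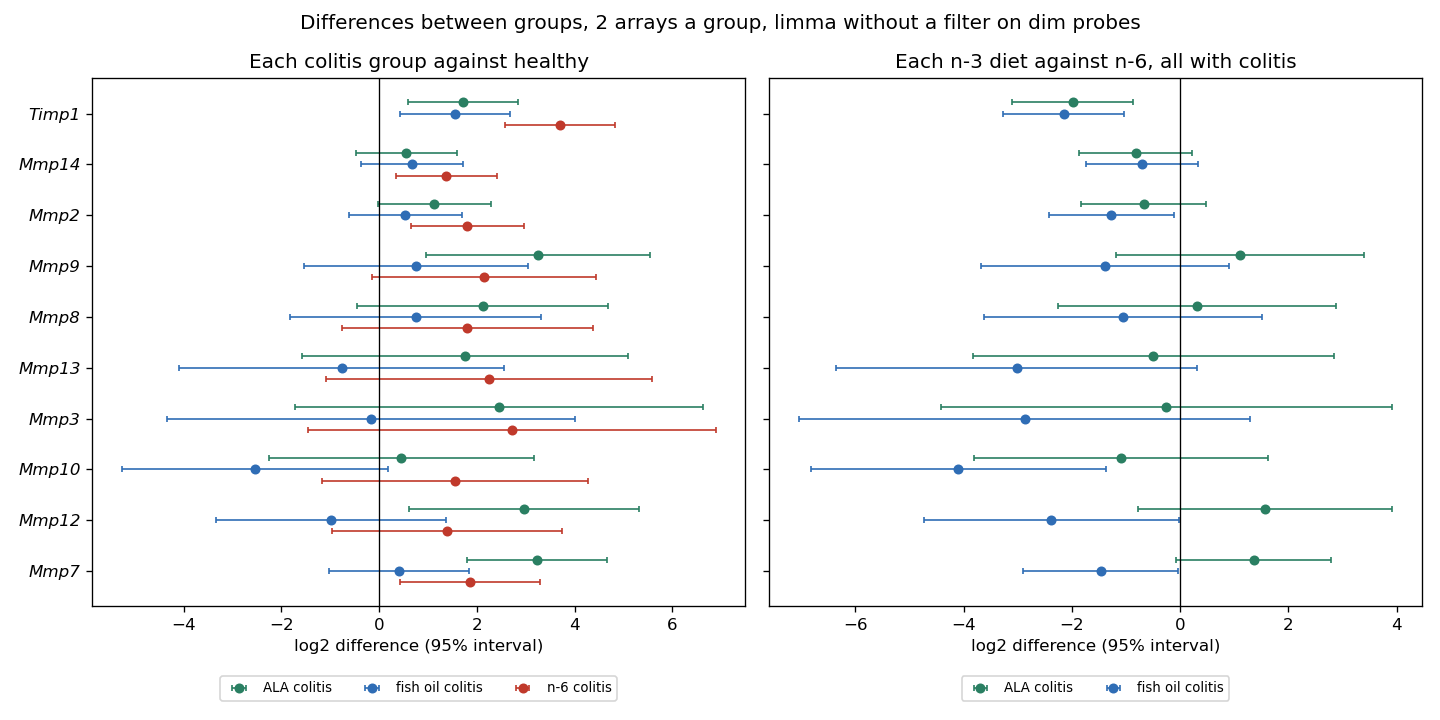
Log2 difference between groups for each gene with its 95% interval from limma, without a filter on dim probes. The left panel sets each colitis group against healthy, and the right panel sets ALA and fish oil colitis against n-6 colitis. The interval of Timp1 lies clear of 0 in all 5 comparisons, while those of Mmp13 and Mmp3 cross 0 in all 5.

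The diets were then compared within colitis, with n-6 colitis in common. In fish oil colitis all 10 genes had a lower mean than in n-6 colitis, with a median log2 difference of -1.81, beside 0.14 over all genes. The adjusted count was 0 of 9 (0.0385% of all genes passed), 5 of 10 were lower at an unadjusted p under 0.05 (3.22% of all genes), and 7 of 10 were lower on both arrays (17.7% of all genes). Mmp12 is among these 7 through n-6 replicate 2 (-4.92) and fish oil replicate 1 (-4.95), neither well above background. Timp1 was 4.45-fold lower (log2 difference -2.15, SE 0.436, unadjusted p = 0.00167, limma adjusted p = 0.41). Mmp10 was 17.1-fold lower (log2 difference -4.09, SE 1.13, adjusted p = 0.41), and -2.33 without n-6 replicate 1. Mmp2 differed by -1.27. On the measured signals Mmp7 was 2.76-fold lower (limma without the filter, adjusted p = 0.686), with no fish oil array well above background. Mmp12 was well above background on 1 of 2 n-6 arrays and on no fish oil array. Its measured signals differed by -2.38 on the log2 scale (adjusted p = 0.41) and by -0.83 without n-6 replicate 1. With normexp Mmp10 differed by -2.19 in place of -4.09, Mmp12 by -0.30 in place of -2.38, Mmp7 by 0.01 in place of -1.46 and Mmp9 by 0.20 in place of -1.38.

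In ALA colitis against n-6 colitis the genes were divided. The adjusted count was 0 of 9 (0.0275% of all genes passed), and 1 of 10, Timp1, was lower at an unadjusted p under 0.05 in the fit without the filter (1.34% of all genes). Timp1 was 3.96-fold lower (log2 difference -1.98, SE 0.436, unadjusted p = 0.00263, limma adjusted p = 0.838). Mmp14 was lower on both ALA arrays than on both n-6 arrays (log2 difference -0.82, adjusted p = 0.884), while Mmp7 was higher on both (log2 difference 1.36, adjusted p = 0.856). Means of the other 7 genes differed with overlapping arrays.

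ALA and fish oil colitis, both n-3 diets, gave close levels of Timp1 and unlike levels of several proteases. Timp1 differed by 0.17 between ALA and fish oil colitis (95% interval -0.86 to 1.20) and Mmp14 by -0.12 (95% interval -1.06 to 0.83). The adjusted count was 0 of 9 (0% of all genes), but 4 of 10 were higher in ALA colitis at an unadjusted p under 0.05 (4.35% of all genes) and 5 of 10 were higher on both ALA arrays (20.7% of all genes). On the measured signals, in limma without the filter, Mmp12 was 15.4-fold higher in ALA colitis (log2 difference 3.95, SE 0.991, adjusted p = 0.758). In the same fit Mmp7 was 7.08-fold higher on the measured signals (log2 difference 2.82, SE 0.605, adjusted p = 0.758). Mmp10 was 8.01-fold higher (SE 1.13, adjusted p = 0.493). The measured signals of Mmp9 were 5.62-fold higher (limma without the filter, adjusted p = 0.758). Against the floor of the fish oil arrays Mmp12 was 11.6-fold and Mmp9 2.55-fold higher. Without fish oil replicate 1, the dimmest array, the log2 difference of Mmp10 was 3.80. Mmp12, Mmp7 and Mmp9 were not well above background on the other fish oil array either. With normexp background correction the log2 differences between ALA and fish oil colitis were 0.79 for Mmp12, 0.69 for Mmp7, 1.14 for Mmp10 and -0.04 for Mmp9.

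For several of the secreted proteases the 2 n-6 arrays lay far apart. Replicate 1 exceeded replicate 2 by 4.61 on the log2 scale for Mmp13 (24.5-fold), 4.56 for Mmp3, 3.53 for Mmp10, 3.08 for Mmp12 and 2.59 for Mmp9. On replicate 2 the signal of Mmp3, Mmp12 and Mmp9 was not well above background, so their gaps are those of the measured signals. Over all genes the median size of this gap was 0.52, and a gap as large as that of Mmp13 was seen in 0.292% of genes and one as large as that of Mmp9 in 2.56%. Timp1 (0.48), Mmp2 (0.50), Mmp14 and Mmp7 (-0.47) had gaps no wider than the median. In ALA colitis Mmp3 had a gap of 4.06, which 0.385% of genes matched. The colon epithelium markers moved with this split: their mean level was 3.17 on n-6 replicate 1 and 4.89 on n-6 replicate 2, against 4.97 and 5.08 on the healthy arrays. The neutrophil markers stood at -1.29 and -1.91 and the fibroblast markers at 2.70 and 2.06 on the same n-6 arrays. Their part in the gap was not tested.

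**Figure D3:**
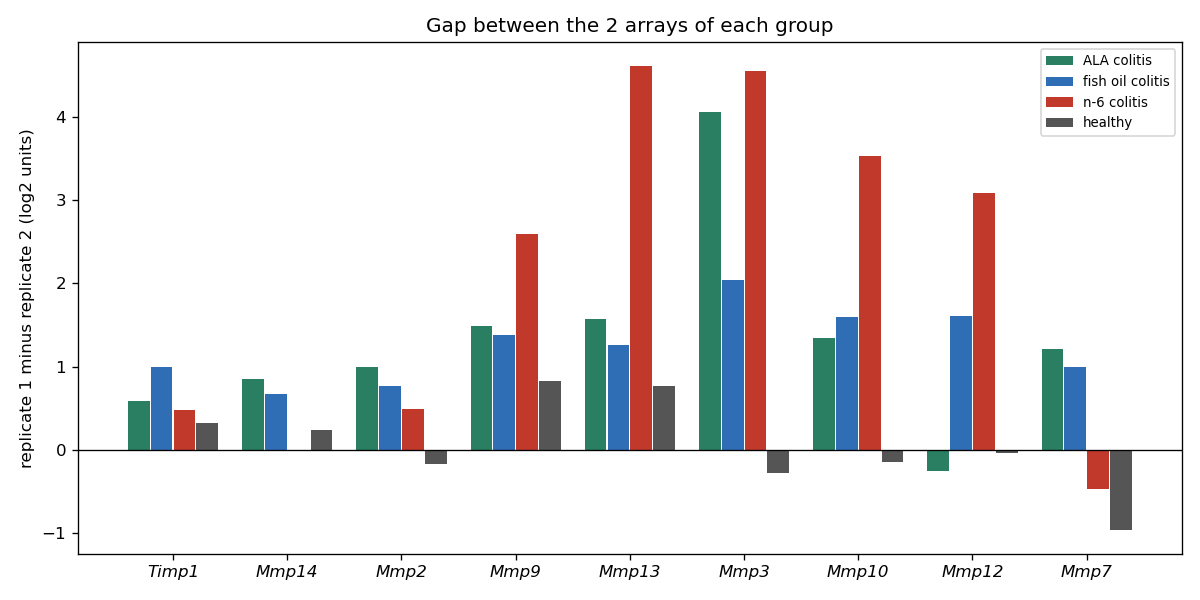
Replicate 1 minus replicate 2 of each group, in log2 units, for the 9 genes that passed the filter. The bars of n-6 colitis reach 4.61 for Mmp13 and 4.56 for Mmp3, while healthy bars stay between -0.96 and 0.82.

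Of the 5 genes with the widest n-6 gaps, Mmp13, Mmp3, Mmp10 and Mmp12 belong to 1 gene cluster. In the RefSeq annotation of the GRCr8 assembly, Mmp13, Mmp12, Mmp1b, Mmp3, Mmp1, Mmp10, Mmp8, Mmp27, Mmp20 and Mmp7 follow each other on chromosome 8 with 2 pseudogenes between them, and 6 of these 10 are among the genes described here. Mmp1, Mmp1b, Mmp27 and Mmp20 were above background on no array. Mmp2, Mmp9, Mmp14 and Timp1 lie on chromosomes 19, 3, 15 and X in the array files. The longest run of bases shared by any pair of the 11 probes was 8 of 60.

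RefSeq promoter sequence (GRCr8, from 250 bases before to 50 bases after the start of the gene) was on hand for 7 of the 10 genes. The AP-1 motif TGANTCA, searched on both strands, was found in 5 of the 7, namely Mmp13, Mmp3, Mmp10, Mmp12 and Mmp7, and in 7.33% of 33469 rat promoters of the same length. It began at -66 in Mmp13, -71 in Mmp3, -61 in Mmp10, -87 in Mmp12 and -80 in Mmp7. It was not found in the windows of Mmp8 and Timp1. Only exact matches were counted: the Timp1 window holds TGAGTAA, which has A where the motif has C. The lack of a match thus does not show that Timp1 has no AP-1 site. The 5 genes with a match all lie in the cluster on chromosome 8 and are not independent. Of the 5 genes, Mmp13, Mmp3, Mmp10 and Mmp12 had the wide n-6 gap and Mmp7 did not. The 3 with the widest gap are printed beside Timp1, which had a narrow one, with the motif in capitals. A match is a stretch of letters and does not show that a factor binds there. The windows lie at chr8:12782579-12782878 (Mmp13), chr8:12925031-12925330 (Mmp3) and chr8:12974457-12974756 (Mmp10), all on the plus strand, and at chrX:3771073-3771372 on the minus strand (Timp1).
Mmp13: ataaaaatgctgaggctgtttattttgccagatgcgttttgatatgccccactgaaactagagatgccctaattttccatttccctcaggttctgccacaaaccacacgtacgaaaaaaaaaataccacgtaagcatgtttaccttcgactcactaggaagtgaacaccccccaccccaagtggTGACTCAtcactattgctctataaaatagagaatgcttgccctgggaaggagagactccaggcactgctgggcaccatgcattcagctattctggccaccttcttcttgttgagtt
Mmp3: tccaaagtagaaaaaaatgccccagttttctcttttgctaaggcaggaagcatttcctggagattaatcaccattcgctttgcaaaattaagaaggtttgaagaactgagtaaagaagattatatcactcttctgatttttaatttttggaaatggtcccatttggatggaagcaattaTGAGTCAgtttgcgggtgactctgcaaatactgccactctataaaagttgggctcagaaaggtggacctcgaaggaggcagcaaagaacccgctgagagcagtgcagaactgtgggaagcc
Mmp10: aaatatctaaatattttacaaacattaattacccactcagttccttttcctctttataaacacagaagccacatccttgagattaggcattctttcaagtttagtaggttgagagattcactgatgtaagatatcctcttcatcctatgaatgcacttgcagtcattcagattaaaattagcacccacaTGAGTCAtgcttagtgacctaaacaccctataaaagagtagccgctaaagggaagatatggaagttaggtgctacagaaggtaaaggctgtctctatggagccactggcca
Timp1: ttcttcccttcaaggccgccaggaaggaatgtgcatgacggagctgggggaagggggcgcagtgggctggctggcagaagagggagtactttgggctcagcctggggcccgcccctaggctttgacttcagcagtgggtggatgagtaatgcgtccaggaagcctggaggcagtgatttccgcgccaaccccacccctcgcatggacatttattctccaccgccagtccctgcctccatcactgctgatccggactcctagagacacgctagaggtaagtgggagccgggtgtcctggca

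**Figure D4:**
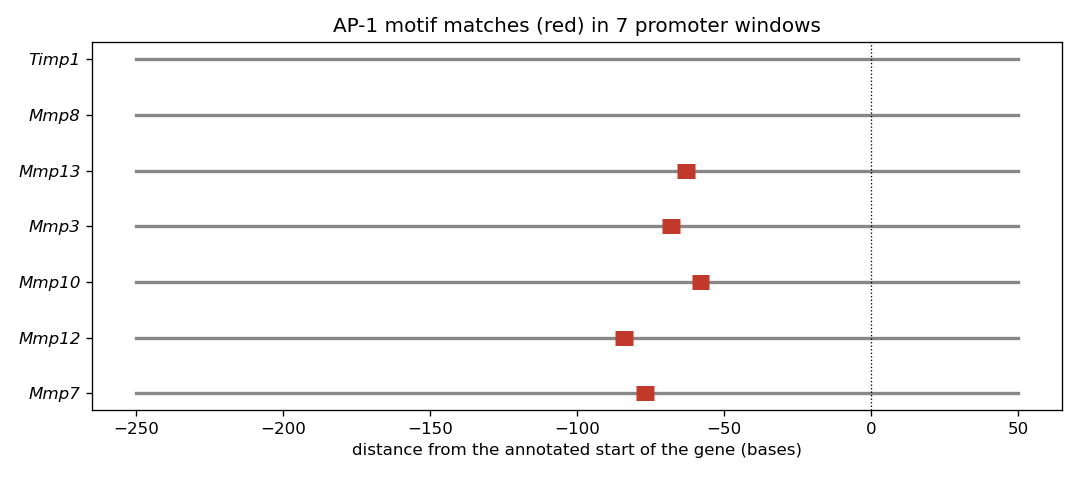
Position of each match to the AP-1 motif (red) in the 7 promoter windows, in bases from the annotated start of the gene. The matches of Mmp13, Mmp3, Mmp10, Mmp12 and Mmp7 begin between -87 and -61, and the windows of Timp1 and Mmp8 hold no exact match.

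Among the AP-1 and NF-kB factors themselves, Fosl1, an AP-1 subunit, rose in n-6 colitis: -1.34 and -1.31 on the n-6 arrays, against -5.28 and -4.71 on the healthy arrays (log2 difference 3.67, SE 0.35, limma adjusted p = 0.0398). It was the only 1 of 10 to pass (0.0385% of all genes did), and the median of the 10 was 0.10. Fosl1 also differed by -2.44 between ALA and n-6 colitis (adjusted p = 0.386) and by -2.63 between fish oil and n-6 colitis (adjusted p = 0.22). Of the inducing cytokines and receptors, 5 of 10 were higher in n-6 colitis than in healthy at an unadjusted p under 0.05 (6.56% of 18165 genes) and 0 passed the adjusted threshold. They include Il1b (2.01), a main inflammatory cytokine, the TNF receptor Tnfrsf1a (1.24), the oncostatin M receptor Osmr (1.66) and Tgfb1 (1.30).

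Of the other protease inhibitors, 6 of 10 were higher in n-6 colitis than in healthy colon at an unadjusted p under 0.05 (6.56% of all genes) and 0 passed the adjusted threshold, with a median log2 difference of 1.33, beside 0.03 over all genes. The broad inhibitor A2m was higher by 5.11 (adjusted p = 0.101), Wfdc18 by 4.44 (adjusted p = 0.125), Serping1, the C1 inhibitor, by 1.18 and Serpina3n by 3.09. In fish oil colitis against n-6 colitis, 4 of 10 were lower at an unadjusted p under 0.05 (5.97% of all genes), among them A2m (-3.78) and the leukocyte protease inhibitor Slpi (-2.40). In ALA colitis against n-6 colitis 1 of 10 was lower (2.6% of all genes), Wfdc18 (-2.13).

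Of 13 other matrix metalloproteases on the array 7 passed the filter, and 1 was higher in n-6 colitis than in healthy at an unadjusted p under 0.05 (6.56% of all genes), Mmp23 (log2 difference 1.59, adjusted p = 0.136). At the same cut 1 of 7 was lower in ALA than in n-6 colitis (2.6% of all genes), Mmp23 (-1.18), and 2 of 7 in fish oil than in n-6 colitis (5.97% of all genes), Mmp23 (-1.51) and Mmp19 (-1.14). Mmp19 was also the 1 of 7 that was higher in ALA than in fish oil colitis (1.25; 6.6% of all genes). Of 10 ADAM and ADAMTS proteases 5 were higher in n-6 colitis than in healthy at an unadjusted p under 0.05 (6.56% of all genes, median of the list 1.02), among them Adamts1 (4.09) and Adamts9 (3.69), which cleave proteoglycans, and 0 passed the adjusted threshold.

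Genes for the substrates of these enzymes were compared in the same way. Of 19 collagens, laminins and other matrix genes, 15 were higher in n-6 colitis than in healthy colon at an unadjusted p under 0.05 (6.56% of all genes) and 1 was lower (7.75% of all genes), with a median log2 difference of 1.31, and 0 passed the adjusted threshold. Against healthy colon 1 of 19 was higher in ALA colitis (4.36% of all genes) and 0 of 19 in fish oil colitis (1.77% of all genes). In n-6 colitis against healthy, Bgn, a small proteoglycan, was higher by 1.47 (adjusted p = 0.138) and the fibrillar collagen Col3a1 by 1.69 (adjusted p = 0.196). Against n-6 colitis, 7 of 19 were lower in ALA colitis at an unadjusted p under 0.05 (2.6% of all genes, median log2 difference -0.87). Among them were Col5a1 (-1.18) and tenascin C, Tnc (-1.98). In fish oil colitis 8 of 19 were lower at that cut (5.97% of all genes, median -0.84), among them Bgn (-1.13) and the laminin chain Lamc1 (-1.59).

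Markers of some cell types were also higher in n-6 colitis than in healthy colon, while the medians of the smooth muscle (0.08), Paneth cell (0.23) and T cell (-0.44) lists were small or below 0. In bulk colon RNA, more cells of a type and more RNA per cell cannot be told apart. The fibroblast markers Col1a1, Col1a2, Col3a1 and Dcn are in the substrate list too, so these lists are not independent. Fibroblast markers had mean levels of 1.84 and 1.52 in ALA colitis, 1.58 and 1.45 in fish oil colitis and 2.70 and 2.06 in n-6 colitis, against 1.61 and 1.35 in healthy colon. At an unadjusted p under 0.05 the count higher than in healthy was 0 of 11 in ALA colitis (4.36% of all genes), 0 of 11 in fish oil colitis (1.77%) and 6 of 11 in n-6 colitis (6.56%). Macrophage and monocyte markers stood at 0.21 and 0.05 in ALA colitis, 0.34 and -0.05 in fish oil colitis and 0.57 and 0.51 in n-6 colitis, against -0.91 and -0.54 in healthy colon. At the same cut the count higher than in healthy was 4 of 11 in ALA colitis (4.36% of all genes), 6 of 11 in fish oil colitis (1.77%) and 8 of 11 in n-6 colitis (6.56%). Neutrophil markers stood at -1.88 and -2.06 in ALA colitis, -1.94 and -3.02 in fish oil colitis and -1.29 and -1.91 in n-6 colitis, against -2.80 and -3.60 in healthy colon. Of the neutrophil list 4 of 8 were higher than in healthy at that cut in ALA colitis (4.36% of all genes), 1 of 8 in fish oil colitis (1.77%) and 5 of 8 in n-6 colitis (6.56%). Its defining genes Cxcr2 and Elane were above background on no array.

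**Figure D5:**
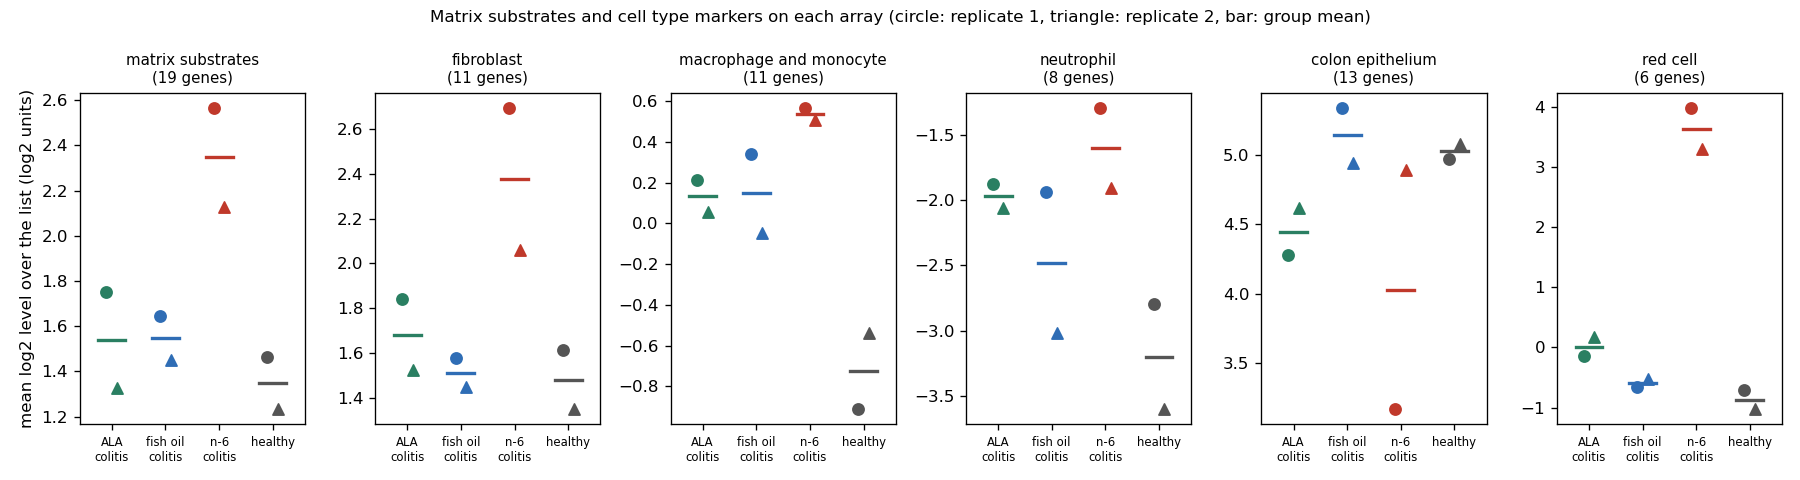
Mean log2 level of matrix substrate genes and of 5 sets of cell type markers on each array, in ALA colitis, fish oil colitis, n-6 colitis and healthy colon. Vertical scales differ between panels. Both n-6 arrays are highest in the panels of matrix substrates, fibroblasts, macrophages and red cells, and n-6 replicate 1 is the lowest epithelial value.

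Red cell genes separated n-6 colitis from the rest most widely. Their mean level was -0.15 and 0.16 in ALA colitis, -0.66 and -0.53 in fish oil colitis and 3.98 and 3.29 in n-6 colitis, against -0.71 and -1.03 in healthy colon. By the adjusted test 5 of 6 rose in n-6 colitis against healthy, where 0.0385% of all genes passed. In ALA colitis 0 of 6 passed it, but 5 of 6 were higher than in healthy at an unadjusted p under 0.05 (4.36% of all genes). Their median log2 difference over the list was 0.96 in ALA colitis. For fish oil colitis the count at that cut was 0 of 6 (1.77% of all genes). Timp1 has the same array order at its top, with the n-6 arrays highest. What part cell make-up or blood has in the Timp1, Mmp2 and Mmp14 values was not tested.

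Genes whose profile over the 8 arrays was nearest to that of Timp1 were sought among 13168 named genes, by the root mean square difference of profiles each centred on its own mean. They were Ifitm3 (0.215), Ifitm7 (0.288), the interleukin-1 receptor antagonist Il1rn (0.303), Grem1 (0.355) and Fosl1 (0.381), in log2 units. For Mmp14 they were Ier5l (0.154), Tnfrsf1a (0.165), Nol3 (0.174), Lhx6 (0.174) and Fcgr2al1 (0.181). A flat profile gives a small difference more readily, and the SD over the arrays was 1.45 for Timp1 and 0.60 for Mmp14. Within the family the closest pairs were Mmp2 with Mmp14 (0.338), Mmp2 with Timp1 (0.710), Mmp3 with Mmp13 (0.752), Mmp10 with Mmp13 (0.760) and Mmp9 with Mmp12 (0.832).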

How the data were processed

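Colon RNA was read on 8 Agilent 1-colour (Cy3) arrays, 2 in each of 4 groups. Per the file headers, the authors' scanner software, Agilent Feature Extraction 11.5.1.1, made the processed intensity of each spot, already background-subtracted, and the files place the probes on rn4. The deposited value table holds log2 values. Each of its columns has a 75th percentile of 0.0032 to 0.00898 and correlated with the log2 intensity of the same array at 0.998 or more. How the authors joined probes is not stated there.

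After removal of control spots and of outliers marked by the scanner software, the spots of a probe were averaged. The level is log2 intensity minus the 75th percentile of the array. A probe counts as well above background on an array where no fewer of its spots carry that mark of the software than lack it. Probes that met this on the 2 arrays of any group were kept (20793 of 30354), and each gene was taken from its probe with the highest mean, which left 18165 genes. limma 3.58.1 in R 4.3.3 fitted all 8 arrays together with 4 residual degrees of freedom, and p-values were adjusted by Benjamini-Hochberg over all genes at 0.05 for each of 7 comparisons. The fit without the filter holds 26181 genes. For a fold against the floor, the probe's level on each dim array was replaced by the lowest level well above background where that was higher. The mean of the brighter group was then set against the mean of these. Intervals are at 95%. The number of arrays limits the precision.

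The fit was tested on simulated data, 5 sets of 18165 genes with 200 changed, for n-6 colitis against healthy: log2 changes of 1 were found in 0.299% of cases, those of 2 in 18.1% and those of 4 in 75.6%. Genes are named by rule: all 10 members, up to 4 genes of each pathway list with the smallest p, and the 5 genes nearest in profile to Timp1 and to Mmp14. Some genes that the rule selects are left out of the text. The members and the lists were chosen with earlier results of these data known. Alternatives tried were the scaling, the background correction, the filter, the joining of probes, the deposited table, the spread estimate, the replicate number as a block and each array left out.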

Additional observations from a re-analysis of the deposited data

How the results depend on the processing

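In n-6 colitis against healthy the count of genes past the adjusted threshold was 1 (Timp1) in place of 0 under median scaling, normexp background correction, a filter of well above background on all 8 arrays, a prior with intensity trend, and a replicate block. Over these 5 the adjusted p of Timp1 lay between 0.00665 and 0.0414, and over the other 5 alternatives between 0.0688 and 0.224. Every other comparison kept a count of 0 under each alternative run. With each array left out in turn the counts ranged from 0 to 0, and the Timp1 difference between n-6 colitis and healthy from 3.46 to 3.94 (adjusted p 0.0528 to 0.364). There the lone array of a group is assumed to vary like the others. Of 63 differences (9 genes in 7 comparisons), 9 turned their sign under some way of processing and 13 with an array left out, and none of these had passed the test. Without n-6 replicate 1 the difference between n-6 colitis and healthy was -0.21 for Mmp10, -0.15 for Mmp12 and -0.05 for Mmp13. The block on the replicate number gave Timp1 an adjusted p of 0.0414, but replicate differences of the groups correlated between -0.17 and 0.47, and the numbers were not taken to pair the arrays. A fit of only the groups compared was not run for the mean of the 3 colitis groups. Dim probes limit Mmp3, Mmp7, Mmp8, Mmp9 and Mmp12.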
